A study of Homo sapiens with 6 samples.

Results

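The lysosome and the proton pump that acidifies it are described here in U87 cells, an established human glioblastoma cell line, after knockdown of the long noncoding RNA LINC00152. The 44 genes were listed by name and fall into 7 role groups, comprising lysosomal membrane proteins, cathepsins, enzymes that degrade glycans and sulfated sugars, enzymes and activators of sphingolipid breakdown, the TRPML1 channel with the TFEB family, and the V0 and V1 sectors of the V-ATPase. All 44 were found among the 27192 gene symbols of the count tables, and 41 of them had enough counts to be among the 14078 genes tested. Of the study's 6 polyA RNA libraries, 3 (A, B and C) came from cells given a mixture of 2 siRNAs against LINC00152 (siLINC00152) and 3 from cells given the nonspecific siRNA siGL2. Both groups were transfected 2 times with a 24 hour interval and harvested 24 hours after the last transfection. No label says whether the libraries of a group came from separate cultures, so each test measures the spread between these libraries, which may be technical.

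Lysosomes break down proteins, glycans and lipids with hydrolases that work best at acid pH. The V-ATPase, a rotary proton pump with a membrane sector (V0) and a cytosolic ATP-hydrolysing sector (V1), supplies the acidity. Transcription factors of the TFEB family bind a CACGTG-containing element, known as the CLEAR element, near the start of many lysosomal genes, and the mTORC1 kinase holds these factors in the cytoplasm when nutrients are plentiful. Most soluble hydrolases are made in the endoplasmic reticulum, tagged with mannose 6-phosphate in the Golgi and carried to lysosomes by receptors for that tag.

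The siLINC00152 libraries held 41963120 to 43713662 counts, and the siGL2 libraries 42139419 to 46234763. LINC00152 itself had 114, 112 and 109 counts in the siLINC00152 libraries against 650, 608 and 776 counts in the siGL2 libraries, and fell 5.68-fold (edgeR adjusted p = 4.55e-15). Of the 5 fixed mesenchymal glioma markers, VIM, CD44 and FN1 were abundant, with at least 86766 counts in each library. The others were lower, NES with 1236 to 1747 counts and CHI3L1 with 1590 to 3034. Of 4 neuron markers, TUBB3 had 8830 to 10426 counts, SNAP25 1705 to 3045, SYT1 403 to 624 and RBFOX3 0 to 1. The labels give brain as the tissue. Of 6 astrocyte markers, AQP4 had 0 counts in each library, S100B 0 to 1, ALDH1L1 0 to 2 and GFAP 2 to 12, while SLC1A2 had 46 to 73 and SLC1A3 1276 to 2028. Library siGL2 A stood apart from siGL2 B and C, with a chi-square per degree of freedom of 10.9 and 13.7 against 2.91 between B and C. The same measure was 5.79 and 5.23 between siLINC00152 A and its replicates B and C, against 3.07 between B and C.

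Small shifts in both directions marked the lysosomal genes. At an edgeR adjusted p under 0.05, 15 of the 41 tested members were higher in siLINC00152 and 16 were lower. Across all 14078 tested genes 64.3% passed, 32.2% in each direction, so the 31 members that passed are to be read against that background. The median log2 fold change (siLINC00152 over siGL2 throughout) was 0.08 over the 41 members and −0.00 over all tested genes, and its median size was 0.20 in the members and 0.28 in all tested genes. A difference of at least 1.5-fold was found in 2 members, CTSA and CTSS, and in 2944 of all tested genes. The levels of both groups did not overlap in 31 of the 41 members, against 67.7% of all tested genes. Tested against a fold of 1.2 in place of no change, 7 members passed: CTSA, GLB1 and PSAP upward, and CTSS, CTSC, MITF and ATP6V1A downward. By that rule 33.2% of all tested genes passed.

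**Figure D1:**
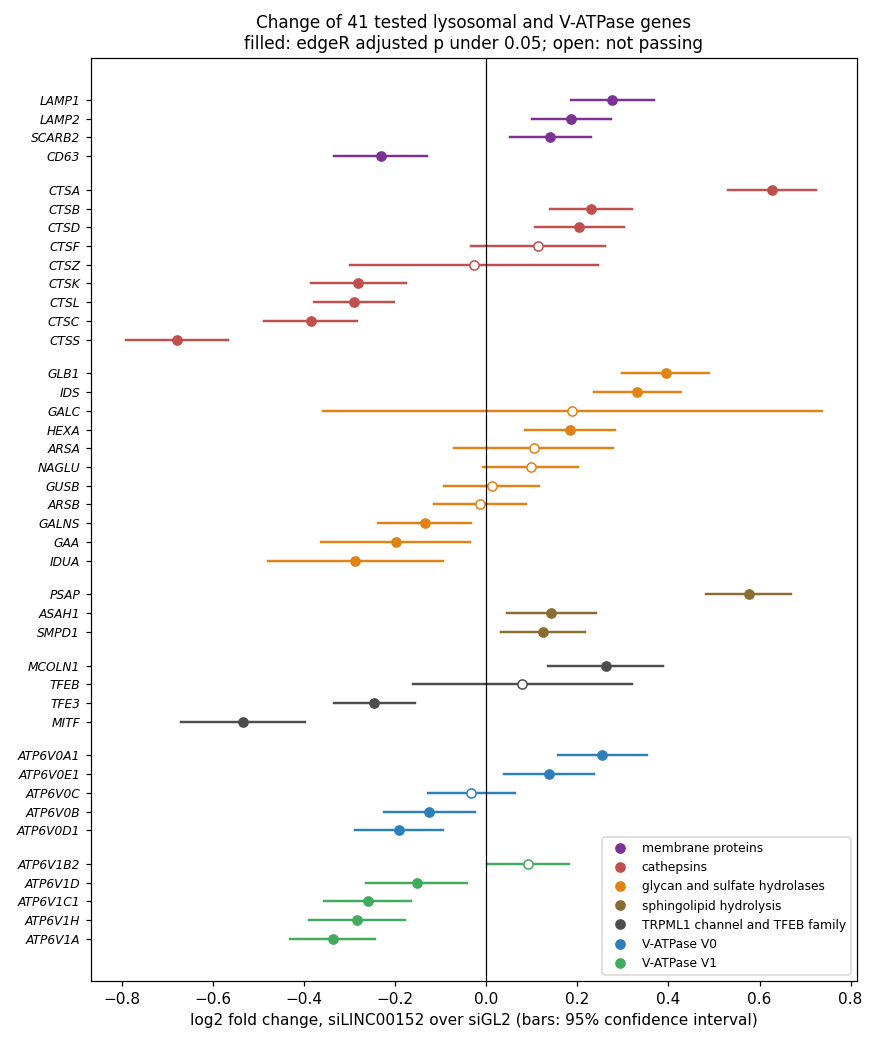
Log2 fold change of each tested member, siLINC00152 over siGL2, in 7 role groups, with 95% confidence intervals; filled points have an edgeR adjusted p under 0.05 and open points do not. CTSA (0.63) and PSAP (0.58) lie farthest to the right, CTSS (−0.68) and MITF (−0.53) farthest to the left, and 4 of the 5 V1 subunits lie left of 0.

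Among the regulators, MITF and TFE3 fell, TFEB did not pass and MCOLN1 rose. MITF encodes a TFEB family factor best known from melanocytes (chromosome 3, 69739435 to 69968337, plus strand, hg38 with GENCODE 29 annotation). Its level was 11.3, 12.5 and 11.8 CPM in siLINC00152 libraries A, B and C, against 17.7, 16.6 and 17.3 CPM in siGL2 libraries A, B and C, where CPM is edgeR's count relative to the TMM-scaled library size. Every siLINC00152 library lay below every siGL2 library, and MITF fell by 0.53 ± 0.07 on the log2 scale (SE; edgeR adjusted p = 4.7e-07).

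TFE3, the family member with the highest level here, stood at 124.7, 122.9 and 124.0 CPM in siLINC00152 libraries and 146.4, 148.7 and 145.7 CPM in siGL2 libraries. The groups did not overlap and TFE3 fell by 0.25 ± 0.04 (SE; edgeR adjusted p = 3.94e-05). TFEB, after which the family is named, was scarce, with 124, 129 and 125 counts in the siLINC00152 libraries against 132, 123 and 126 counts in the siGL2 libraries. At 3.01 ± 0.0681 against 2.85 ± 0.189 CPM (SD, n = 3 each) the groups overlapped, and its log2 fold change of 0.08 had a 95% confidence interval of −0.16 to 0.32 (edgeR adjusted p = 0.567). Per kb of merged exons, siGL2 levels were 34.3 CPM per kb for TFE3, 2.39 for MITF and 0.505 for TFEB.

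MCOLN1 encodes TRPML1, a calcium channel of the lysosomal membrane and a known target of TFEB (chromosome 19, 7522626 to 7534009, plus strand). It stood at 21.5, 19.5 and 21.0 CPM in siLINC00152 libraries against 16.7, 17.4 and 17.5 CPM in siGL2 libraries. All siLINC00152 values lay above all siGL2 values, and MCOLN1 rose by 0.26 ± 0.06 (SE; edgeR adjusted p = 7.99e-04). The channel and 2 of the 3 tested factors therefore moved in opposite directions, and protein amounts or nuclear location of the factors were not measured.

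The starts of 4 members whose RefSeq promoters hold the palindromic CLEAR core TCACGTGA, which reads the same on both strands, are shown. They hold sites of the kind that TFEB, TFE3 and MITF bind. Each sequence runs from 90 bases before the RefSeq start to 30 bases past it (RefSeq, GRCh38.p14, plus strand, 5′ to 3′). RefSeq starts can differ from the GENCODE gene starts given elsewhere, and the CTSA window lies inside the GENCODE span of CTSA. Capitals mark the core. The windows are chr20:45891245-45891364 for CTSA, chr13:113297149-113297268 for LAMP1, chr19:7522534-7522653 for MCOLN1 and chr17:80101491-80101610 for GAA.
CTSA: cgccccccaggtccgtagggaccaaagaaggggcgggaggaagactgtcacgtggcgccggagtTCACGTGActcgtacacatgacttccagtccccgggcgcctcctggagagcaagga
LAMP1: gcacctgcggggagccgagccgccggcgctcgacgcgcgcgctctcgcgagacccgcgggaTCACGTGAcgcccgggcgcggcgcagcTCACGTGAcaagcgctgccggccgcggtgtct
MCOLN1: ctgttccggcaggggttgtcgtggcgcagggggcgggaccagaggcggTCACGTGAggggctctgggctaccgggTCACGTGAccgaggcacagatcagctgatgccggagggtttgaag
GAA: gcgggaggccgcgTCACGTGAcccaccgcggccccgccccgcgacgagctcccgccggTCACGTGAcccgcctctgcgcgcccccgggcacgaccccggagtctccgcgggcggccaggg

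RefSeq promoter sequences of 300 bases, from 250 before to 50 after a gene start, were matched for 29 of the 44 members. The core TCACGTGA was present in 6 of these 29 (20.7%), against 1.18% of all 27305 genes with such a promoter and 2.19% of the 10270 of them that were tested. The shorter CACGTG, contained in the core, was present in 12 of the 29 (41.4%), against 8.77% of all and 12.3% of tested genes. Both strings read the same on either strand. The 6 members with the core divided evenly in direction. CTSA, LAMP1 and MCOLN1 rose, while GAA, GALNS and ATP6V0D1 fell. Of 225 tested genes of the whole table with the core, 76 were higher and 80 lower in siLINC00152. The element is known from many lysosomal genes, so its higher share among members listed as such is no result of these data. A match of letters is a description and not evidence that a factor is bound, and members without a match were searched in this window alone.

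The membrane proteins rose slightly, except CD63. LAMP1, a heavily glycosylated protein that lines the lysosome (chromosome 13, 113297241 to 113323672, plus strand), had 590.3, 547.3 and 565.4 CPM in siLINC00152 libraries against 478.4, 467.7 and 459.9 CPM in siGL2 libraries. LAMP1 rose by 0.28 ± 0.04 (SE; edgeR adjusted p = 1.24e-05), with no overlap between the groups. LAMP2, which also serves chaperone-mediated autophagy, had 418.4, 430.3 and 431.8 CPM in siLINC00152 libraries against 383.5, 369.8 and 372.2 CPM in siGL2 libraries, and rose by 0.19 ± 0.04 (edgeR adjusted p = 5.72e-04). SCARB2, the receptor that carries glucocerebrosidase to lysosomes, rose by 0.14 ± 0.04 (edgeR adjusted p = 0.00671), but that call was lost without siLINC00152 replicate C (adjusted p = 0.0597) and with library size alone as the scale (adjusted p = 0.134).

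CD63, a tetraspanin of late endosomes and exosomes (chromosome 12, 55725323 to 55729707, minus strand), went the other way. It had 984.9, 892.0 and 886.7 CPM in siLINC00152 libraries against 1036, 1127 and 1083 CPM in siGL2 libraries, and fell by 0.23 ± 0.05 (SE; edgeR adjusted p = 2.99e-04). The groups lay close, with the highest siLINC00152 library just under the lowest siGL2 library. The summed level of the 4 membrane protein genes was 2437 ± 57.6 CPM in siLINC00152 and 2399 ± 30.6 CPM in siGL2 libraries (SD, n = 3 each), ranges that overlapped.

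Cathepsins moved in both directions. Of 9 tested cathepsins, CTSA, CTSB and CTSD rose, CTSC, CTSK, CTSL and CTSS fell, and CTSF and CTSZ did not pass. That is 77.8% called in either direction, beside 64.3% of all tested genes. The 3 that rose include the serine carboxypeptidase CTSA and the aspartic protease CTSD, while the 4 that fell all encode cysteine proteases, as does CTSB.

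CTSA, also called protective protein because it stabilises the sialidase NEU1 and the galactosidase GLB1 in a complex, lies at 45890144 to 45898820 on chromosome 20 (plus strand). It had 944.5, 867.3 and 970.8 CPM in siLINC00152 libraries against 595.7, 609.4 and 596.8 CPM in siGL2 libraries. The groups were far apart, and CTSA rose 1.54-fold (log2 fold change 0.63 ± 0.05, SE; edgeR adjusted p = 2.54e-10). Genes on the other strand cover 28.5% of its exonic bases, and 20.7% of its 75-base stretches recur elsewhere in the annotation, mainly in NEURL2, so reads there could be counted for either gene.

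CTSB, the cathepsin with the most counts, had 1049, 978.4 and 1032 CPM in siLINC00152 libraries against 886.8, 869.1 and 852.5 CPM in siGL2 libraries. It rose by 0.23 ± 0.04 (SE; edgeR adjusted p = 9.51e-05), without overlap. CTSD lay between 882.6 and 999.0 CPM in siLINC00152 and between 805.9 and 823.6 CPM in siGL2 libraries, and rose by 0.20 ± 0.05 (edgeR adjusted p = 6.93e-04). In CTSD 41.7% of 75-base stretches recur elsewhere, mainly in AC068580.4, and genes on the other strand cover 15.8% of its exonic bases.

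CTSS, a cysteine protease known for trimming the MHC class II invariant chain in antigen-presenting cells, showed the largest fall among the members (chromosome 1, 150730196 to 150765957, minus strand). Its levels were 26.74, 27.46 and 27.24 CPM in siLINC00152 libraries and 42.01, 42.27 and 46.07 CPM in siGL2 libraries. The siLINC00152 libraries were tightly grouped well below the siGL2 libraries, and CTSS fell (log2 fold change −0.68 ± 0.05, SE; edgeR adjusted p = 7.9e-10). Of 7 microglia and macrophage markers, TYROBP had 0 counts in every library, PTPRC 0 to 4 and CX3CR1 0 to 2, and their summed level of 13.2 to 14.3 CPM in siLINC00152 and 22.5 to 23.2 CPM in siGL2 libraries was almost entirely CSF1R (13.3 ± 0.535 against 22.6 ± 0.411 CPM, SD, n = 3 each). CD14, the other marker of the 7 with enough counts to be tested, went the other way, with 15, 19 and 13 counts in siLINC00152 libraries against 4, 9 and 2 counts in siGL2 libraries (edgeR adjusted p = 0.00169). All libraries came from the U87 cell line, and the part of these markers in the fall of CTSS was not tested. In bulk RNA, fewer cells expressing these genes and less of their RNA per cell cannot be told apart.

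CTSC, which activates granule serine proteases (chromosome 11, 88293592 to 88337787, minus strand), had 49.9, 52.7 and 53.1 CPM in siLINC00152 libraries against 65.2, 68.2 and 70.0 CPM in siGL2 libraries. The groups did not overlap and it fell by 0.39 ± 0.05 (SE; edgeR adjusted p = 7.21e-07). CTSL, a broad-specificity endopeptidase, fell by 0.29 ± 0.04 (edgeR adjusted p = 4.77e-06), and CTSK, the collagen-degrading cathepsin of osteoclasts, by 0.28 ± 0.05 (edgeR adjusted p = 5.43e-05). CTSF stood at 0.11 ± 0.07 and CTSZ, with 103 to 158 counts per library, at −0.03 ± 0.13, and neither passed. CTSH (2 to 15 counts) and CTSO (0 to 3 counts) were too low to be tested. The 3 cathepsins that rose hold most of the counts of the group, and the summed cathepsin level was 3353 ± 144 CPM in siLINC00152 and 2866 ± 14.5 CPM in siGL2 libraries (SD, n = 3 each), without overlap.

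**Figure D2:**
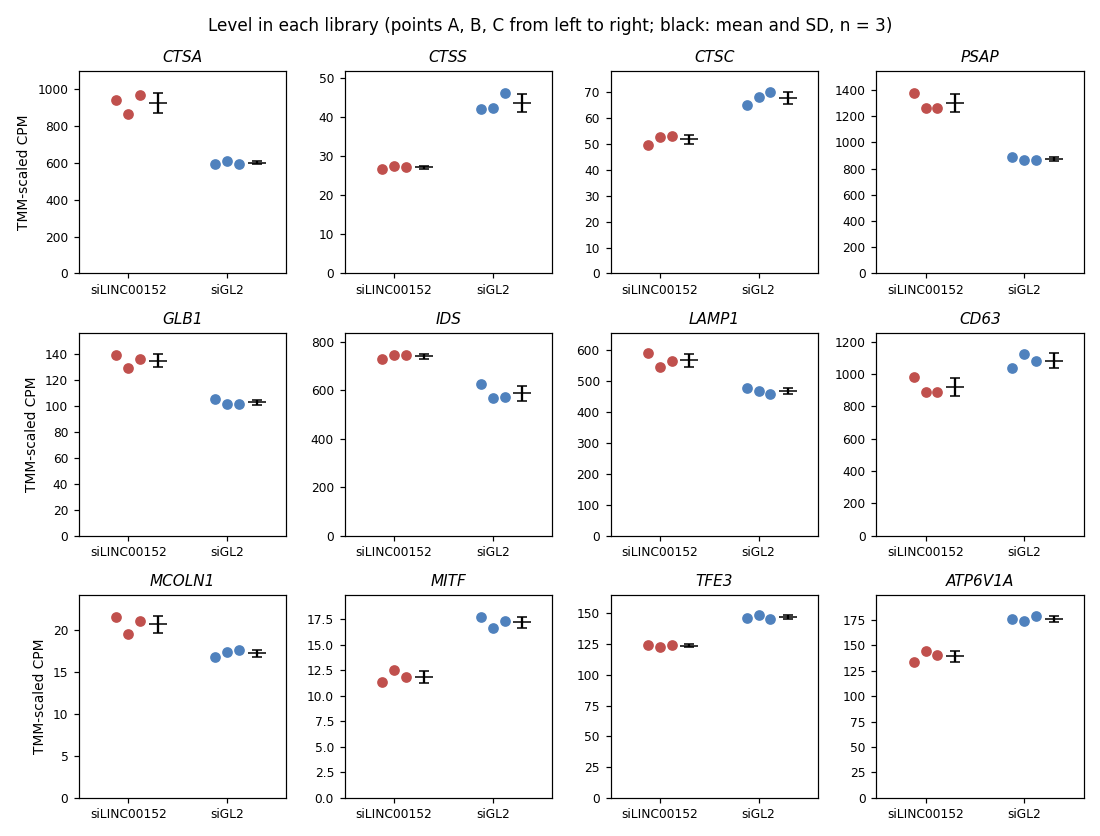
TMM-scaled CPM of 12 members in each library, on axes that start at 0, with siLINC00152 libraries left of siGL2 libraries and the mean and SD of 3 libraries in black. In each of the 12 genes the points of one group lie wholly above or below those of the other, farthest apart for CTSA, CTSS and PSAP and closest for CD63.

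Enzymes of glycan and sulfated sugar breakdown went both ways. Of 11 tested, GLB1, IDS and HEXA rose, GAA, IDUA and GALNS fell, and ARSA, ARSB, GALC, GUSB and NAGLU did not pass. The 54.5% called in either direction compare with 64.3% of all tested genes. GLB1 encodes the lysosomal beta-galactosidase (chromosome 3, 32996608 to 33097230, minus strand). Its levels of 139.6, 129.6 and 136.0 CPM in siLINC00152 libraries lay above those of 105.0, 101.9 and 101.5 CPM in siGL2 libraries, and GLB1 rose 1.31-fold (log2 fold change 0.39 ± 0.05, SE; edgeR adjusted p = 2.18e-07).

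IDS, the iduronate sulfatase that opens the breakdown of heparan and dermatan sulfate (chromosome X, 149476990 to 149521096, minus strand), had 726.5, 744.2 and 746.6 CPM in siLINC00152 libraries. In siGL2 libraries it had 623.8, 566.1 and 571.9 CPM, with library A nearest to the other group. IDS rose by 0.33 ± 0.05 (SE; edgeR adjusted p = 2.07e-06), and 17.2% of its 75-base stretches recur elsewhere, mainly in AC244197.3. HEXA, a subunit of beta-hexosaminidase, rose by 0.18 ± 0.05 (edgeR adjusted p = 0.00207), with 12.98% of its exonic bases facing genes on the other strand and 12.3% of its 75-base stretches recurring elsewhere.

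IDUA, which acts after IDS on the same chains, had 8.206, 6.997 and 7.021 CPM in siLINC00152 libraries against 9.98, 9.21 and 7.97 CPM in siGL2 libraries. The ranges overlapped, and the fall of 0.29 ± 0.09 (SE; edgeR adjusted p = 0.00985) was lost without siLINC00152 replicate B (adjusted p = 0.0545). Genes on the other strand cover 13.4% of its exonic bases. GAA, the acid alpha-glucosidase that degrades lysosomal glycogen, fell by 0.20 ± 0.08 (edgeR adjusted p = 0.0318). That call was lost without siLINC00152 replicate B or C or without siGL2 replicate B or C (adjusted p = 0.0645 to 0.177), and by the DESeq2 Wald test (0.0952). The sulfatase GALNS fell by 0.14 ± 0.05 (edgeR adjusted p = 0.0207), a call lost without siLINC00152 replicate B (adjusted p = 0.146) or C (adjusted p = 0.0534).

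Of the 5 that did not pass, GUSB, the beta-glucuronidase often used as a reference gene, had a log2 fold change of 0.01 with a 95% confidence interval of −0.09 to 0.12, and the sulfatase ARSB one of −0.01 (−0.11 to 0.09). NAGLU stood at 0.10 (−0.01 to 0.20). ARSA, which removes sulfate from sulfatide, stood at 0.10 (−0.07 to 0.28), and it passed upward without siLINC00152 replicate B (edgeR adjusted p = 0.0155). GALC, the galactosylceramidase deficient in Krabbe disease, had only 19 to 30 counts per library and an interval of −0.36 to 0.74.

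NEU1, the lysosomal sialidase that needs CTSA, was listed at 0 counts in all 3 siLINC00152 libraries and at 0, 0 and 1 counts in the siGL2 libraries. These zeros are not read as absence of the transcript. NEU1 lies on chromosome 6 from 31857659 to 31862906, and 71 of the 93 listed coding genes within 1 Mb of it had fewer than 10 counts in every library (76.3%), against 36.0% in the rest of chromosome 6 and 32.7% across all chromosomes. The splicing helicase gene DDX39B and the elongation factor gene NELFE, which most cells use, were at 0 counts in all 6 libraries, and the casein kinase subunit gene CSNK2B at 2 to 5. Not all neighbours were that low, as PRRC2A had 165 to 205 counts and ATF6B 5 to 10. The region was chosen for this count after its values were seen.

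All 3 genes of sphingolipid breakdown rose, led by PSAP. Over all tested genes 32.2% were higher, and a group of 3 is too small to set beside that share. PSAP encodes prosaposin, the precursor of the saposins that present sphingolipids to their hydrolases (chromosome 10, 71816298 to 71851375, minus strand). It had 1380, 1260 and 1266 CPM in siLINC00152 libraries against 887.0, 865.0 and 868.3 CPM in siGL2 libraries. No library of one group came near the other, and PSAP rose 1.49-fold (log2 fold change 0.58 ± 0.05, SE; edgeR adjusted p = 6.04e-10).

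ASAH1, the acid ceramidase, had 187.6, 186.2 and 192.9 CPM in siLINC00152 libraries against 161.1, 173.4 and 178.8 CPM in siGL2 libraries, and SMPD1, the acid sphingomyelinase, 180.8, 169.9 and 177.6 against 161.8, 166.0 and 156.8 CPM. Both rose slightly without overlap, ASAH1 by 0.14 ± 0.05 (SE; edgeR adjusted p = 0.0111) and SMPD1 by 0.12 ± 0.04 (edgeR adjusted p = 0.0193). With library size alone as the scale neither passed (adjusted p = 0.163 and 0.269), nor did either without siLINC00152 replicate C (0.0596 and 0.0715). SMPD1 also missed without siLINC00152 replicate A (0.0639) and without siGL2 replicate C (0.0979). The summed level of the 3 genes was 1666 ± 70.9 CPM in siLINC00152 and 1206 ± 3.34 CPM in siGL2 libraries (SD, n = 3 each), mostly PSAP.

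Among the V-ATPase members, 4 of 5 subunits of the cytosolic V1 sector fell and those of the membrane V0 sector went both ways. Of the V1 members, ATP6V1A, ATP6V1C1, ATP6V1D and ATP6V1H fell and ATP6V1B2 did not pass. Of the 5 V0 members, ATP6V0A1 and ATP6V0E1 rose, ATP6V0B and ATP6V0D1 fell and ATP6V0C did not pass. Of all 10 V-ATPase members 60.0% were lower and 20.0% higher, beside 32.2% of all tested genes in each direction.

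ATP6V1A encodes the catalytic subunit that hydrolyses ATP (chromosome 3, 113747019 to 113812056, plus strand). It had 133.5, 144.4 and 140.0 CPM in siLINC00152 libraries against 175.4, 173.6 and 178.9 CPM in siGL2 libraries. The gap between the groups exceeded the range within either, and ATP6V1A fell 1.26-fold (log2 fold change −0.34 ± 0.04, SE; edgeR adjusted p = 1.36e-06).

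ATP6V1H, a regulatory subunit that silences free V1, had 48.2, 49.3 and 47.5 CPM in siLINC00152 libraries against 55.7, 58.9 and 61.9 CPM in siGL2 libraries, and fell by 0.28 ± 0.05 (SE; edgeR adjusted p = 5.17e-05). ATP6V1C1, which holds the stator stalks to the V0 sector, had 128.0, 136.8 and 130.1 CPM in siLINC00152 libraries against 163.3, 153.5 and 156.3 CPM in siGL2 libraries, and fell by 0.26 ± 0.05 (edgeR adjusted p = 4.42e-05). Neither pair of groups overlapped. ATP6V1D, part of the central rotor, fell by 0.15 ± 0.05 with overlapping groups (edgeR adjusted p = 0.0159), and the call was lost without siLINC00152 replicate A (adjusted p = 0.0822), siGL2 replicate B (0.0551) or siGL2 replicate C (0.101). ATP6V1B2, which alternates with the A subunit in the head of the pump, stood at 0.09 (95% confidence interval 0.00 to 0.18; edgeR adjusted p = 0.0675).

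ATP6V0A1, the large subunit through which protons cross the membrane, had 52.9, 53.5 and 54.0 CPM in siLINC00152 libraries against 45.3, 44.5 and 44.7 CPM in siGL2 libraries. Replicates lay within about 1 CPM of each other, the groups were apart, and ATP6V0A1 rose by 0.25 ± 0.05 (SE; edgeR adjusted p = 7.5e-05). ATP6V0D1, which couples rotor and membrane ring, had 101.1, 93.2 and 98.9 CPM in siLINC00152 libraries against 110.4, 110.4 and 113.9 CPM in siGL2 libraries, and fell by 0.19 ± 0.05 (edgeR adjusted p = 0.00122).

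ATP6V0E1, a small V0 subunit, had 167.0, 161.7 and 166.3 CPM in siLINC00152 libraries against 140.3, 155.2 and 154.5 CPM in siGL2 libraries, with siGL2 A the lowest. Its rise of 0.14 ± 0.05 (SE; edgeR adjusted p = 0.0154) was lost without siLINC00152 replicate C (adjusted p = 0.0569) and with library size alone (0.203). ATP6V0B, a proteolipid of the rotating ring, fell by 0.13 ± 0.05 (edgeR adjusted p = 0.0274), a call lost without siLINC00152 replicate B (adjusted p = 0.0876) or C (0.169) or siGL2 replicate B (0.0892). The ring's main proteolipid gene ATP6V0C stood at −0.03 (−0.13 to 0.06), and 62.4% of its 75-base stretches recur elsewhere, mainly in AC093525.2. The summed level of the 5 V1 members was 571 ± 12.8 CPM in siLINC00152 and 649 ± 11.2 CPM in siGL2 libraries, without overlap. That of the 5 V0 members was 475 ± 9.99 CPM in siLINC00152 and 475 ± 10.003 CPM in siGL2 libraries (SD, n = 3 each). Subunits outside the members are not in these sums.

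**Figure D3:**
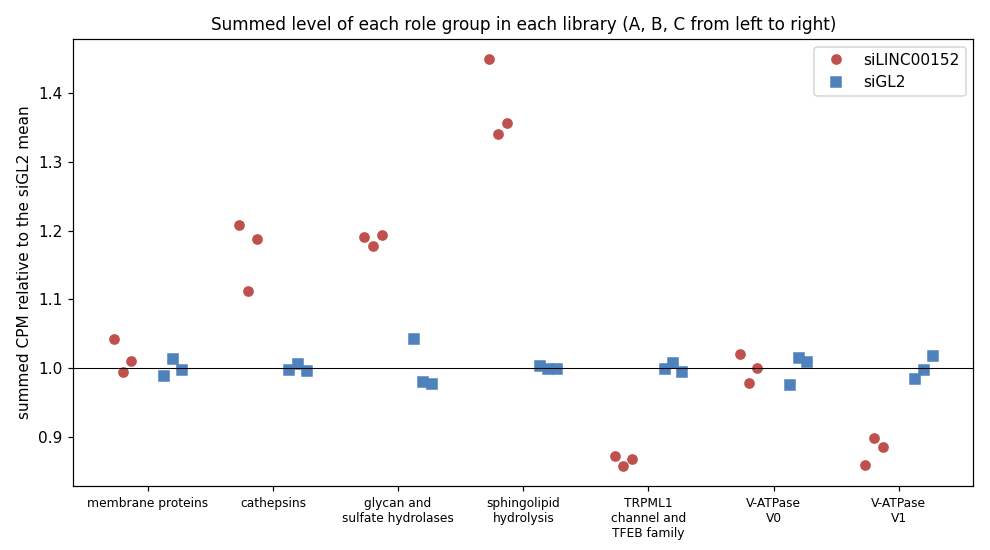
Summed TMM-scaled CPM of each role group in each library, divided by the group's mean in siGL2, with siLINC00152 libraries left of siGL2 libraries. Sphingolipid breakdown, cathepsins and glycan hydrolases lie above 1 in all siLINC00152 libraries, the TFEB family with TRPML1 and the V1 sector lie below 1, and the membrane proteins and the V0 sector overlap with siGL2. A sum follows its abundant genes. In siLINC00152, IDS held 739 of the 1181 CPM of glycan hydrolases, and TFE3 held 124 of the 159 CPM of the TFEB family with TRPML1.

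Per kb of merged exons the members' levels spanned several orders of magnitude in the siGL2 libraries. CD63 was highest at 411 CPM per kb, followed by PSAP (270), CTSD (261), CTSL (162), CTSB (117) and CTSA (103). In siLINC00152 libraries PSAP stood at 402 CPM per kb, CD63 at 350, CTSD at 300, CTSA at 158, CTSB at 137 and CTSL at 132. The order of these genes depends on the length used. With the longest annotated transcript as the length, CD63 was highest in both groups, at 747 CPM per kb in siLINC00152 and 878 in siGL2 libraries, with PSAP at 453 and 304, and CTSA lay above CTSL in both, at 304 against 144 in siLINC00152 and 197 against 176 in siGL2. By that length, 9 of the 10 highest members in siGL2 remained among the 10 highest. V-ATPase subunits lay between 92.4 CPM per kb for ATP6V0E1 and 4.09 for ATP6V0A1 in siGL2, and GALC was lowest at 0.0759. All 44 genes together held 9844 ± 265 CPM in siLINC00152 and 8773 ± 31.6 CPM in siGL2 libraries (SD, n = 3 each).

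**Figure D4:**
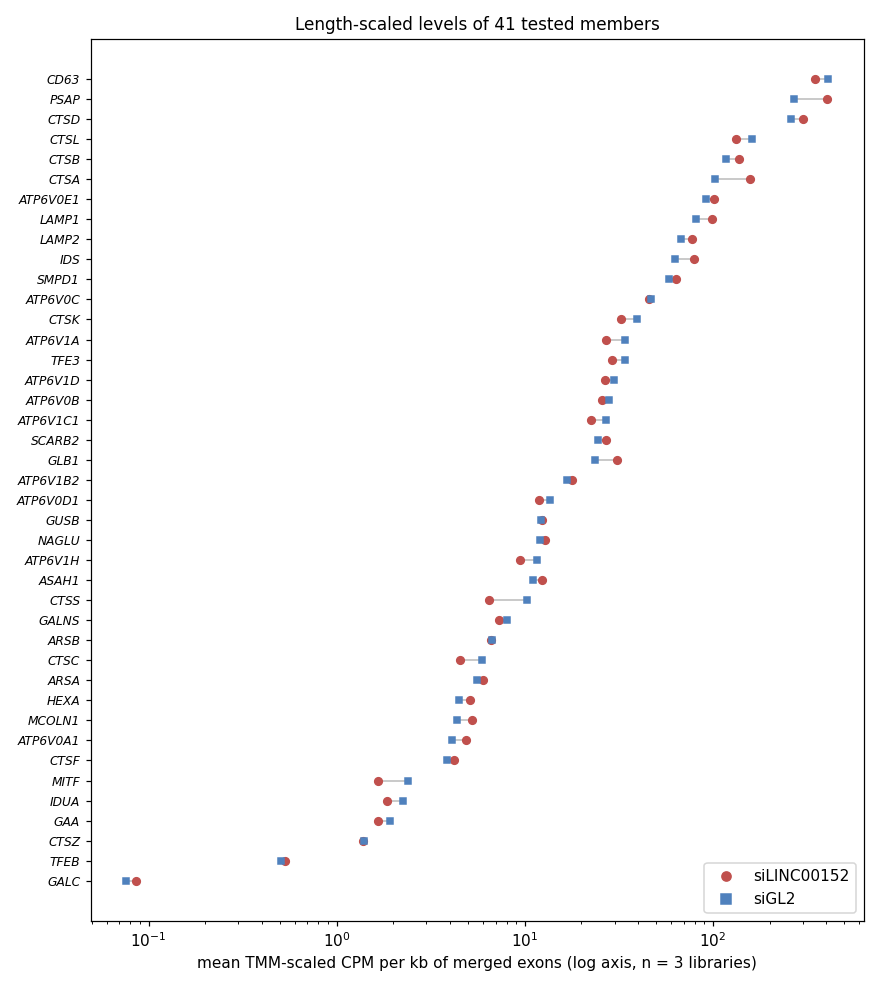
Mean TMM-scaled CPM per kb of merged exon length on a log axis for the 41 tested members, ordered by the siGL2 level, with siLINC00152 as circles and siGL2 as squares. Levels run from 411 CPM per kb for CD63 to 0.0759 for GALC in siGL2, and the distance between the groups is small beside the distance between genes.

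Further genes of the pathway were read from 6 lists with 139 symbols, of which 124 were tested. Of these, 60 were higher in siLINC00152 (48.4%) and 28 lower (22.6%), against 32.2% of all tested genes in each direction. With library size alone as the scale the counts were 47 and 33. On that scale all tested genes held 3755 higher and 5389 lower, against 4529 in each direction in the main fit. Among 30 other hydrolases and cofactors 14 rose (46.7%) and 4 fell (13.3%), and the 60.0% called in either direction compare with 64.3% of all tested genes. LIPA, the acid lipase that frees cholesterol from its esters, rose by 0.75 ± 0.05 (SE; 176 ± 6.21 against 105 ± 3.83 CPM in siLINC00152 and siGL2 libraries, SD, n = 3 each). HGSNAT, which acetylates heparan sulfate during its breakdown, rose by 0.63 ± 0.05 and the beta-mannosidase gene MANBA by 0.55 ± 0.05. ACP5, the tartrate-resistant acid phosphatase of osteoclasts and macrophages, fell 2.73-fold, with 4.68, 3.62 and 4.79 CPM in siLINC00152 libraries against 11.1, 12.2 and 12.3 CPM in siGL2 libraries. For all 4, edgeR's adjusted p did not exceed 7.36e-09. Of the macrophage markers given beside CTSS, CSF1R was lower and CD14 higher in siLINC00152, and their part in the fall of ACP5 was not tested.

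Among 28 other membrane proteins, channels and transporters 15 rose (53.6%) and 5 fell (17.9%), against 32.2% in each direction over all tested genes. NPC1, which exports cholesterol from lysosomes, had 157.5, 153.2 and 156.1 CPM in siLINC00152 libraries against 326.0, 288.1 and 280.2 CPM in siGL2 libraries and fell 1.92-fold (edgeR adjusted p = 2.72e-12). SPNS1, a transporter of lysophospholipids, rose 2.01-fold (edgeR adjusted p = 1.25e-12), with 46.04% of its 75-base stretches recurring elsewhere, mainly in AC109460.3, and 14.8% of its exonic bases facing genes on the other strand. The sialic acid exporter gene SLC17A5 rose by 0.76 ± 0.06 (SE) and the arginine sensor gene SLC38A9 by 0.79 ± 0.06, both with an edgeR adjusted p of 1.02e-09 or lower.

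Of 20 further V-ATPase subunits and assembly factors, 8 rose (40.0%) and 5 fell (25.0%), beside 32.2% each way in all tested genes. The accessory subunit gene ATP6AP1 rose 1.59-fold, with 176.6, 159.9 and 173.2 CPM in siLINC00152 libraries against 105.8, 108.5 and 106.8 CPM in siGL2 libraries (edgeR adjusted p = 1.28e-10). The stalk subunit gene ATP6V1G1 rose by 0.45 ± 0.06 (SE; edgeR adjusted p = 4.06e-06) and the assembly factor gene CCDC115 by 0.39 ± 0.06 (edgeR adjusted p = 1.14e-05), while ATP6V0E2 fell by 0.33 ± 0.04 (edgeR adjusted p = 1.62e-06). In ATP6V0E2 15.9% of 75-base stretches recur elsewhere, mainly in ATP6V0E2-AS1, and genes on the other strand cover 13.01% of its exonic bases. Beside the 4 members that fell, ATP6V1E1 (−0.17 ± 0.05) and ATP6V1F (−0.16 ± 0.05) fell too, and these 2 were picked for the sector after their values were seen. ATP6V1G1 is a V1 subunit as well and went the other way. Its rise was larger in size than the fall of any V1 member. The call of ATP6V1F was lost without siLINC00152 replicate B (edgeR adjusted p = 0.0772). Genes on the other strand cover 23.7% of its exonic bases, and 14.3% of its 75-base stretches recur elsewhere.

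In the sorting of hydrolases 12 of 21 genes rose (57.1%) and 6 fell (28.6%), where 32.2% of all tested genes did so in each direction. IGF2R, the large mannose 6-phosphate receptor, had 897.0, 856.5 and 881.8 CPM in siLINC00152 libraries against 581.2, 496.9 and 474.2 CPM in siGL2 libraries, and rose 1.70-fold (edgeR adjusted p = 2.47e-09). GNPTAB, the catalytic part of the enzyme that adds the tag, rose by 0.51 ± 0.04 (SE; edgeR adjusted p = 3.59e-09). Also higher, and picked after their values were seen, were the other tagging genes GNPTG (0.39 ± 0.06) and NAGPA (0.39 ± 0.08) and the small receptor gene M6PR (0.26 ± 0.04). Genes on the other strand cover 29.3% of the exonic bases of M6PR and 30.9% of those of GNPTG, and 23.7% and 25.8% of their 75-base stretches recur elsewhere, mainly in PHC1 and UNKL. Of the Golgi adaptors, GGA1 fell by 0.48 ± 0.05 (edgeR adjusted p = 1.01e-07) and AP1M1 by 0.38 ± 0.04 (edgeR adjusted p = 2.43e-07).

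Of 19 genes that control TFEB, 7 were higher and 7 lower (36.8% each), a share near the 32.2% of all tested genes. FNIP2, a partner of folliculin in the control of RAG GTPases, had 79.9, 73.2 and 75.5 CPM in siLINC00152 libraries against 36.7, 31.2 and 33.7 CPM in siGL2 libraries, and rose 2.25-fold (edgeR adjusted p = 4.62e-13). RHEB, the GTPase that activates mTORC1 at the lysosome, had 119.3, 128.2 and 121.5 CPM in siLINC00152 libraries against 194.6, 219.1 and 225.7 CPM in siGL2 libraries, and fell 1.73-fold (edgeR adjusted p = 5.58e-11). The groups were clearly apart in both genes. MTOR rose by 0.39 ± 0.05 (SE; edgeR adjusted p = 1.46e-06), whereas the RAG GTPase gene RRAGC fell by 0.37 ± 0.05 (edgeR adjusted p = 1.2e-06), with 21.8% of its 75-base stretches recurring elsewhere, mainly in AL139260.2.

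Of 6 tested genes on the list of cathepsin inhibitors, which also holds the carboxypeptidase inhibitor gene LXN, 4 rose and 1 fell. That list is too short to set beside the 32.2% of all tested genes. CST3 (cystatin C), a secreted inhibitor, rose by 0.41 ± 0.05 (SE; edgeR adjusted p = 4.95e-07) and the cytosolic CSTB (cystatin B) fell by 0.27 ± 0.05 (edgeR adjusted p = 9.81e-05). SERPINB1 rose by 0.15 ± 0.05 (edgeR adjusted p = 0.0201) and LXN, which inhibits carboxypeptidases, by 0.27 ± 0.10 (edgeR adjusted p = 0.0211). Both calls were lost with library size alone as the scale (adjusted p = 0.189 for SERPINB1 and 0.0762 for LXN) and without siLINC00152 replicate C (0.0823 and 0.173). SERPINB1 also missed without siLINC00152 replicate B (0.0553) or siGL2 replicate B (0.0805), and LXN without siGL2 replicate A (0.0676) and by the DESeq2 Wald test (0.0663).

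**Figure D5:**
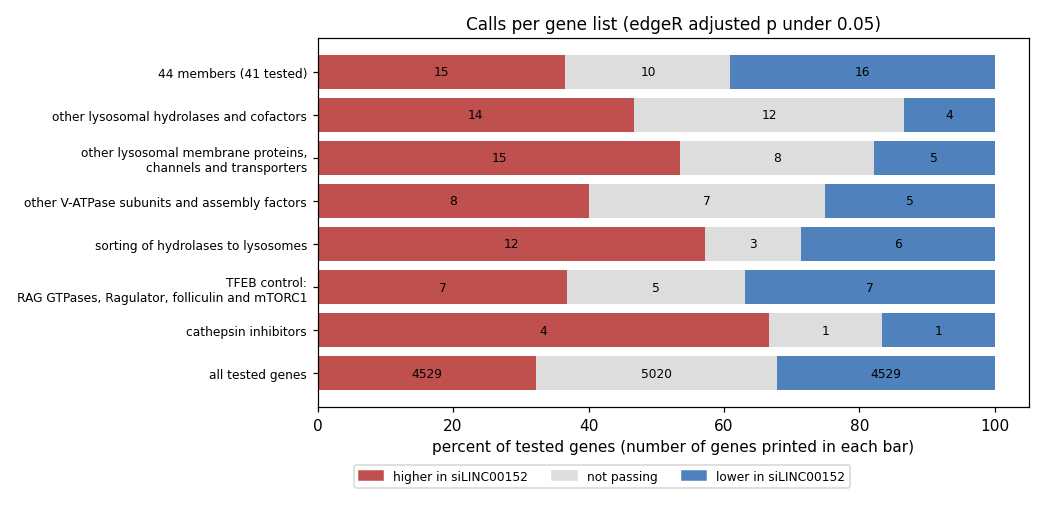
Share of tested genes called higher in siLINC00152, not passing, or lower, for the 44 members, the 6 other lists of the pathway and all tested genes, with the number of genes in each bar. The members hold 15 higher and 16 lower, and the other hydrolases hold 14 higher and 4 lower.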

How the data were processed

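PolyA RNA of 6 libraries was sequenced after a directional library preparation, per the labels' protocols. The authors deposited raw counts per gene symbol, made with bcl2fastq, HISAT, HTSeq and DESeq on hg38, per the submitters' processing notes. For the counting, no annotation, tool version or strand setting is given in the sources used here. Reads shared between overlapping or near-identical genes may be split in unknown ways. No normalization was applied to the deposited counts.

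The counts were analysed with edgeR 4.0.16 in R 4.3.3. Low genes were removed with filterByExpr at a minimum count of 10 and a minimum total of 15. Counts were scaled by TMM (factors 0.975 to 0.979 in siLINC00152 and 1.02 to 1.03 in siGL2 libraries) and tested by the robust two-sided quasi-likelihood test of siLINC00152 over siGL2. Benjamini-Hochberg adjustment ran over all 14078 tested genes, with a threshold of 0.05. The biological coefficient of variation was 4.47%. A count of 3, the least read as detected, corresponds to 0.0649 to 0.0715 CPM, which covers counting error only. Standard errors are the log2 fold change divided by the root of the F statistic. The procedure was tested on simulated data with far fewer changed genes than passed here. Change as wide as in these data was not simulated. DESeq2 1.42.0 and other settings served as alternatives.

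Coordinates, exon lengths and the share of 75-base stretches found in other genes come from GENCODE 29 (GRCh38), and promoters from RefSeq (GRCh38.p14). Sharing and opposite-strand overlap are given where they reach 10% for named members and genes of the other lists, and not for cell type markers. LINC00152 was not matched to the annotation, so neither was measured for it. Per-library values are given for up to 3 members per role group with the largest called change, for the 3 most abundant members and for the TFEB family with MCOLN1, and up to 4 genes with the smallest p from each other list. Members and lists were chosen with earlier results of these data known.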

Additional observations from a re-analysis of the deposited data

How the results depend on the processing

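No call reversed under the 13 alternatives, and 22 of the 31 members that passed kept call and direction in all of them but the test against a fold of 1.2. That test left 3 members higher and 4 lower, 2337 and 2341 of all genes, and 25 and 10 genes of the other lists. Leaving out each library in turn gave 11 to 16 members higher and 12 to 16 lower, 4155 to 4666 and 4133 to 4670 of all genes, and 52 to 61 and 24 to 30 of the other lists. Library size alone as the scale moved the median log2 fold change of all genes by −0.07 and gave 11 members higher and 16 lower, 3755 and 5389 of all genes, and 47 and 33 of the other lists. The DESeq2 Wald test gave 15 members higher and 15 lower, 4181 and 4115 of all genes, and 59 and 27 of the other lists. Same-letter correlations of deviations were 0.0818 for A, −0.0129 for B and 0.0698 for C. Those for A and C were the highest between the groups, while siLINC00152 B correlated best with siGL2 C (0.0365). Deviations within 3 libraries per group cannot decide whether the letters pair the groups, and the main fit did not pair them. With the replicate block 15 members were higher and 16 lower, and 4571 and 4584 of all genes. GALC, CTSZ and TFEB are limited by depth, with at most 158 counts in any library.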
